A study of Mus musculus with 20 samples.

Results

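Tdg, Tet1, Tet2 and Tet3 encode the enzymes of active DNA demethylation, and their RNA and the CTCF peaks around them were compared between wild-type (WT) mouse embryonic stem cells and cells lacking thymine DNA glycosylase (TDG KO). They were picked by symbol from the authors' deposited comparison table, 4 of the 46939 genes listed there. The rule used no measured value, but the choice was made with earlier results of these data known. Both genotypes had the same background, the mouse strain 129, and were grown with LIF and serum on growth-arrested embryonic fibroblasts, which were then depleted by repeated plating. Polyadenylated RNA was sequenced from 2 libraries per genotype, and CTCF chromatin immunoprecipitation from 2 libraries per genotype. The labels do not say how Tdg was disrupted, whether each genotype is more than 1 line, or whether replicates were separate cultures. A difference between genotypes is therefore also a difference between the lines, and p-values measure only how far these libraries differ, which may be technical spread.

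The TET proteins are iron and 2-oxoglutarate dependent dioxygenases that oxidise 5-methylcytosine in steps to 5-hydroxymethylcytosine, 5-formylcytosine and 5-carboxylcytosine. TDG excises the last pair of these bases, and base excision repair then puts an unmodified cytosine in their place. Embryonic stem cells are known for high Tet1 and Tet2 and low Tet3, and TET1 and TET3 carry a CXXC zinc finger that binds unmethylated CpG, which TET2 lacks. The question of the series was whether 5-carboxylcytosine affects where CTCF binds, the architectural protein found at chromatin loop anchors.

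The promoters of the Tet genes differed in sequence. The 250 bases before the RefSeq start of Tet2 (chromosome 3, 133544391 to 133544640, minus strand) and of Tet3 (chromosome 6, 83441679 to 83441928, minus strand) are shown. These genes differed in CpG content and in the sign of their RNA difference, which for Tet3 was not called. The RefSeq gene of Tet3 reaches to 83457208, upstream of the window shown. Both read 5′ to 3′ toward the start, come from RefSeq (GRCm38.p6) and have every CpG in capitals.
Tet2: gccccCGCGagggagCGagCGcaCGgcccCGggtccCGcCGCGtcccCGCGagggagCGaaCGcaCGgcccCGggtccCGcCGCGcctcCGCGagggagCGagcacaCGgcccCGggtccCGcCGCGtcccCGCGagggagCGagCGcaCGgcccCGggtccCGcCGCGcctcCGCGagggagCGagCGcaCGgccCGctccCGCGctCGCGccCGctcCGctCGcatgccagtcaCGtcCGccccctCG
Tet3: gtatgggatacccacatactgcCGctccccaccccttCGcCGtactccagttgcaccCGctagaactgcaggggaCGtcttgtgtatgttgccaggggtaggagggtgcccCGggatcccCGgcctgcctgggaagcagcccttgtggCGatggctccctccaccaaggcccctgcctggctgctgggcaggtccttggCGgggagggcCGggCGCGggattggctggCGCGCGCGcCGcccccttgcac
The Tet2 window held 51 CpG and the Tet3 window 17. The Tet1 window held 15 CpG and the Tdg window 19, counts near that of Tet3, and the RNA of both was lower in TDG KO. The median of 32851 promoters of the same length was 6. Whether CpG content has a part in the RNA differences was not tested. More CpG than in the Tet2 window were found in few promoters, since 99.9% of all held fewer. G and C made up 83.6% of the Tet2 window, 69.6% of that of Tet3, 62.8% of that of Tet1 and 56.8% of that of Tdg, against a median of 52.4%. The Tet2 window is built of near-identical repeats, in which the 12 bases CCGCGAGGGAGC occur 5 times. In 2.62% of promoters some stretch of that length occurred at least as often.

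Tdg, the targeted gene, was strongly lower in the TDG KO libraries. In FPKM, a level per length of transcript and per mapped fragment, the WT libraries measured 28.1 (replicate 1) and 30.4 (replicate 2) and the TDG KO libraries 5.50 and 4.74, in the replicate order kept throughout. Both TDG KO libraries lay far below both WT libraries. The means were 29.3 ± 1.66 FPKM in WT and 5.12 ± 0.538 FPKM in TDG KO (SD, n = 2 each), so that 17.5% of the WT level was left. On log2(FPKM + 1) this was a change of -2.31 (SE 0.0866; adjusted p = 9.21e-06 by limma, Benjamini-Hochberg over 12035 genes), the 23rd lowest of all tested genes. Of those genes 54.0% passed the threshold of 0.05 in either direction, 24.4% higher and 29.5% lower. Only 1.30% were called lower by at least 1 on the log2 scale, among them Tdg and Tet2. Which part of the Tdg transcript made up the remaining signal cannot be read from a value per gene. In bulk RNA, fewer cells with a transcript and less transcript per cell cannot be told apart.

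Glt8d2, which encodes a glycosyltransferase-like protein, adjoins the 3′ end of Tdg and was lower as well. RefSeq places Tdg at chromosome 10, 82629814 to 82650799, and Glt8d2 at 82650431 to 82694125, an overlap of 369 bases, and the authors' table gives both genes 1 locus (82629827 to 82690650). Its level was 5.28 and 5.44 FPKM in WT but 0.305 and 0.170 FPKM in TDG KO. That left 4.44% of the WT level, at a log2 change of -2.36 (SE 0.104, limma adjusted p = 1.66e-05), the 21st lowest of the tested genes. Reads of overlapping genes may be assigned to either of them, and whether the authors counted by strand was not given in the sources used here. What part read assignment has in the Glt8d2 difference was not tested. Beyond Glt8d2 on the same side, Hcfc2, a homologue of the host cell factor HCFC1, had a log2 difference of -0.24 (SE 0.0881, limma adjusted p = 0.0531). On the other side of Tdg, the genes 1190007I07Rik (log2 change -0.48, limma adjusted p = 0.00276) and Gm4924 (-0.44, limma adjusted p = 0.0104) were called lower.

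Tet1 (ENSMUSG00000047146; mm10 chromosome 10, 62804569 to 62899118), the most abundant Tet gene in these cells, was moderately lower in TDG KO. The WT libraries measured 45.7 and 44.5 FPKM, the TDG KO libraries 37.2 and 24.7 FPKM. The genotypes did not overlap, but the TDG KO libraries stood further apart from each other than replicate 1 stood from WT. The means were 45.1 ± 0.848 and 30.9 ± 8.79 FPKM (SD, n = 2 each), so that 68.7% of the WT level was left. The log2 change of -0.56 (SE 0.165) passed the threshold (limma adjusted p = 0.0274). Without TDG KO replicate 1 it was -0.84 and without TDG KO replicate 2 it was -0.27, so the size rests on which TDG KO library is read. The call was lost without WT replicate 1 (limma adjusted p = 0.0871), without WT replicate 2 (0.0746) and with no filter on low genes (0.126).

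Tet2 (ENSMUSG00000040943; mm10 chromosome 3, 133463678 to 133585053) had the largest fall among the Tet genes. Its WT libraries measured 29.3 and 26.3 FPKM, while 10.4 and 7.72 FPKM were left in TDG KO. The genotypes were well separated, with means of 27.8 ± 2.12 and 9.06 ± 1.90 FPKM (SD, n = 2 each) and 32.6% of the WT level left. The log2 change was -1.53 (SE 0.129, limma adjusted p = 0.0002), the 64th lowest of 12035 genes. It lay between -1.72 and -1.33 when each library was left out in turn, and the call held each time.

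Tet3 (ENSMUSG00000034832; mm10 chromosome 6, 83362372 to 83459084), the Tet gene best known from the oocyte and zygote, was near the limit of measurement and had the opposite sign. It measured 0.458 and 0.565 FPKM in WT, compared with 1.25 and 0.846 FPKM in TDG KO. Both TDG KO libraries lay above both WT libraries, with means of 0.512 ± 0.0758 and 1.05 ± 0.284 FPKM (SD, n = 2 each), a ratio of 2.05. Its mean over the 4 libraries, 0.779 FPKM, was under the minimum of 1 FPKM for testing. The difference on log2(FPKM + 1) was 0.43, a scale that understates ratios of low genes. When all 24145 genes above 0 were fitted, of which 25.8% were called, Tet3 did not pass (SE 0.122, limma adjusted p = 0.0728).

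Groups that do not overlap are common here: 78.8% of tested genes had them, 43.6% with TDG KO below WT and 35.1% above, so the separation of all 4 genes is not particular to them. The authors' deposited table, with its sign turned to TDG KO over WT, listed log2 folds of -2.51 for Tdg, -0.54 for Tet1, -1.62 for Tet2 and 1.03 for Tet3. In the authors' deposited table the q-value was 0.0175 for Tet1 and 0.000468 for each of the others. All 4 were marked significant in the authors' deposited table, as were 27.4% of the 16262 genes tested there. The tests thus differ on Tet3, which the authors' table called and limma did not.

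**Figure D1:**
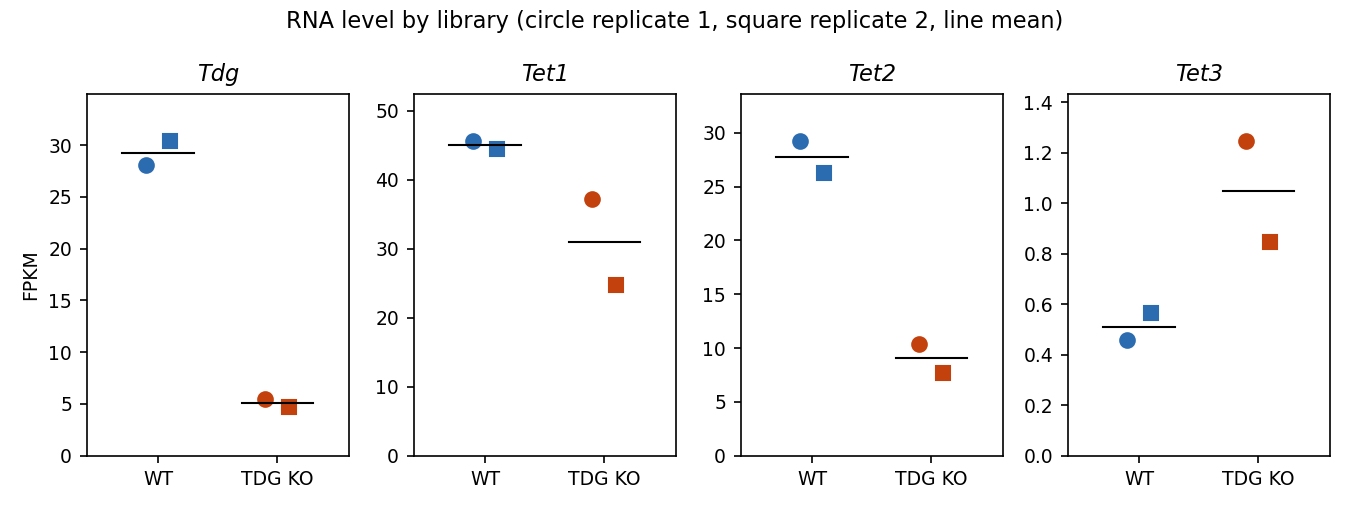
FPKM of Tdg, Tet1, Tet2 and Tet3 in each of the 2 WT and 2 TDG KO libraries, each panel with its own axis from 0; circles are replicate 1, squares replicate 2 and lines the genotype mean (n = 2 libraries each). Tdg, Tet1 and Tet2 lie lower in both TDG KO libraries and Tet3 lies higher, at levels near 1 FPKM.

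Tet1 was the highest and Tet3 the lowest in both genotypes, and a change in the order of Tdg and Tet2 was not resolved. In WT, Tet1 was highest at 45.1 FPKM, followed by Tdg at 29.3 and Tet2 at 27.8 FPKM, and the libraries of this last pair overlapped, so their order was not resolved. Tet3 came last at 0.512 FPKM. In TDG KO the order was Tet1, Tet2, Tdg and Tet3, at 30.9, 9.06, 5.12 and 1.05 FPKM, and no neighbours in that order overlapped. FPKM is a value per length, but such an order between genes also depends on how reads were assigned. Tdg shares its locus with Glt8d2, and which part of its transcript remained in TDG KO is not known.

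The summed Tet RNA was smaller in TDG KO and more of it was Tet1. The 3 Tet genes added up to 75.4 and 71.3 FPKM in the WT libraries, and to only 48.8 and 33.3 FPKM in the TDG KO libraries. Tet1 made up 61.5% ± 1.27 of that sum in WT and 75.2% ± 1.31 in TDG KO (SD, n = 2 each). The share of Tet2 was 37.8% ± 1.40 in WT and 22.3% ± 1.32 in TDG KO, and that of Tet3 was 0.700% ± 0.131 and 2.55% ± 0.0115. Tet2 stood at 0.641 and 0.591 of the Tet1 level in the WT libraries and at 0.280 and 0.312 in the TDG KO libraries. This ratio varied less between the TDG KO replicates than the level of either gene did. No test was made of these shares, since with 2 against 2 libraries the smallest p of an exact permutation test is 0.33.

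All 4 genes were lower in TDG KO replicate 2 than in TDG KO replicate 1. The shortfall was 33.4% for Tet1, 32.2% for Tet3, 25.8% for Tet2 and 13.8% for Tdg. Over all tested genes 46.0% were lower in replicate 2. Gene length moved with that share: it was 69.6% among the 1761 genes that span at least 80 kb in RefSeq and 41.8% among the 9578 shorter ones. The Tet genes belong to the long class, with spans of 82.9 kb for Tet1, 81.5 kb for Tet2 and 94.8 kb for Tet3, while Tdg spans 20.99 kb. The 80 kb cut was not among the planned settings and lies just under the spans of Tet1 and Tet2. The part of gene length in these replicate differences was not tested.

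**Figure D2:**
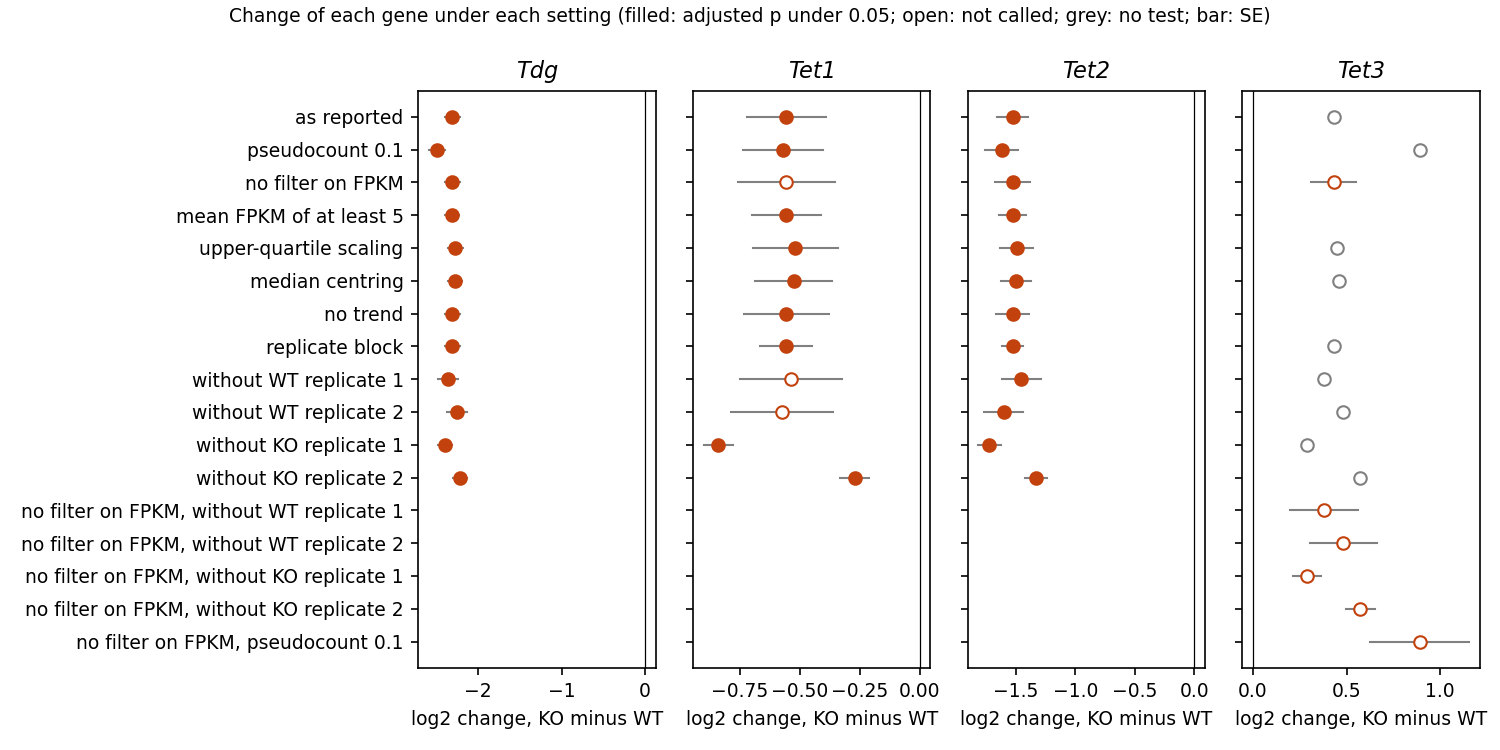
Log2 change, TDG KO minus WT, of each gene as reported and under each alternative setting; filled points passed the adjusted p threshold of 0.05, open orange points did not, grey points had no test, bars are SE, and each panel has its own axis. Tdg stays near -2.31 and Tet2 near -1.53, while Tet1 runs from -0.84 to -0.27 and loses its call in 3 settings.

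Cell-type markers were checked beside these values. Embryonic stem cell markers were abundant, with Pou5f1, the gene of the core pluripotency factor OCT4, at 996 to 1572 FPKM, and the 8 markers summed to between 7877 and 8667 FPKM in WT libraries and between 6067 and 6257 FPKM in TDG KO libraries. Of these 2 were called higher, 3 lower and 3 neither. Fibroblast markers, which would mark leftover feeder cells, were present in every library and none of the 10 was at 0. Of the 9 tested, 6 were called lower in TDG KO, none higher and 3 neither, against 29.5% lower and 24.4% higher over all tested genes. Summed, they ranged from 162 (replicate 2) to 260 FPKM (replicate 1) among WT libraries. The sums were 144 to 167 FPKM among TDG KO libraries, so the sums overlapped, but single markers differed. Col3a1 averaged 43.5 FPKM in WT and 17.2 FPKM in TDG KO. Acta2, the only marker with a higher mean in TDG KO, averaged 42.4 and 51.1 FPKM and was not called. The part of fibroblast RNA in the differences of the Tet genes and Tdg was not tested. Across genes, which are not independent replicates, the correlation was 0.989 between replicates of either genotype and 0.955 to 0.96 between genotypes.

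The writers of 5-methylcytosine, on which the TET enzymes act, were led by genes that rose. Of the 6 listed genes 3 were called higher, 1 lower and 2 neither, with a median log2 change of 0.52 against -0.04 over all tested genes. Among all tested genes 24.4% were called higher and 29.5% lower. Dnmt3a, a de novo methyltransferase, measured 12.3 and 12.9 FPKM in WT, and 35.5 and 36.3 FPKM were found in TDG KO (log2 change 1.44, SE 0.063, limma adjusted p = 1.66e-05). Its paralogue Dnmt3b rose by 1.05 (limma adjusted p = 4.77e-05) and the cofactor Dnmt3l by 1.02 (limma adjusted p = 8.56e-05). Dnmt1, the maintenance methyltransferase, fell by 0.29 (limma adjusted p = 0.00596). Uhrf1 and Uhrf2, which bring DNMT1 to replicated DNA or bind related marks, were not called.

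Partners and cofactor genes of the TET enzymes had more lower than higher calls, as did all tested genes (29.5% lower and 24.4% higher). Of 28 listed genes 26 were tested, 4 were called higher, 11 lower and 11 neither, with a median of -0.17. Dppa3, which protects methylated DNA from oxidation in the zygote, held 1.83 and 1.67 FPKM in WT and 57.8 and 61.9 FPKM in TDG KO (log2 change 4.47, SE 0.0736, limma adjusted p = 7.14e-07). Tfcp2l1, a naive-state transcription factor reported to bind TET2, fell from 112 ± 0.136 to 49.6 ± 4.39 FPKM (SD, n = 2 each; log2 change -1.16, limma adjusted p = 6.90e-05). Sall4, a zinc finger partner in TET binding to enhancers, fell by 0.54 (limma adjusted p = 0.00210), and Cxxc5, a CXXC protein related to the one beside Tet2, by 0.48 (limma adjusted p = 0.00136). Cxxc4, a gene near Tet2 that encodes the CXXC domain split from it in evolution, and the vitamin C transporter gene Slc23a1 stayed under the filter. Their values did not exceed 0.184 and 0.220 FPKM in any library.

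Other DNA glycosylases, which like TDG start base excision repair, were split. Of 10 tested, 4 were called higher, 3 lower and 3 neither, and the median was 0.06. The shares over all tested genes were 24.4% higher and 29.5% lower. Mpg, which removes alkylated purines, rose by 0.83 (limma adjusted p = 0.000271), and Mbd4, which shares with TDG the removal of thymine from G:T mismatches, rose by 0.42, from 5.65 ± 0.0543 to 7.88 ± 0.407 FPKM (SD, n = 2 each; limma adjusted p = 0.00427). Neil2 fell by 0.55 (limma adjusted p = 0.0100) and Neil1 by 0.39 (limma adjusted p = 0.00720), both glycosylases for oxidised bases that are reported to act after TDG. The count of lower calls was 1 with no filter and 0 at a minimum mean of 5 FPKM.

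Genes of TDG's partners and of the repair steps after it were also split. Of 26 tested, 7 were called higher, 10 lower and 9 neither, with a median of 0.03. Beside these stand 24.4% higher and 29.5% lower over all tested genes. Apex1, the endonuclease that cuts the site TDG leaves, fell from 147 ± 3.59 to 88.8 ± 5.12 FPKM (SD, n = 2 each; log2 change -0.72, limma adjusted p = 0.000276). Lig3, the ligase that can seal the repaired strand, rose by 0.71 (limma adjusted p = 0.000263). Gadd45b and Gadd45g, stress-response genes of a family reported to promote demethylation, rose by 0.75 (limma adjusted p = 0.000340) and 0.58 (limma adjusted p = 0.0104).

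Other dioxygenases of the same cofactor class, Alkbh1 to Alkbh8 and Fto, served as a comparison. Of 9 tested, 2 were called higher, 3 lower and 4 neither, with a median of -0.04, equal to that of all genes at this precision. Calls over all tested genes were 24.4% higher and 29.5% lower. Alkbh5, an RNA demethylase for N6-methyladenosine, rose by 0.46 (limma adjusted p = 0.00215), and Fto, which also demethylates adenosines in RNA, fell by 0.32 (limma adjusted p = 0.00534). Alkbh1 fell by 0.42 (limma adjusted p = 0.00304) and Alkbh8, which modifies transfer RNA, by 0.37 (limma adjusted p = 0.0130). None of these 9 genes moved as far as Tet2 or Tdg, and no test compared the groups with each other.

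**Figure D3:**
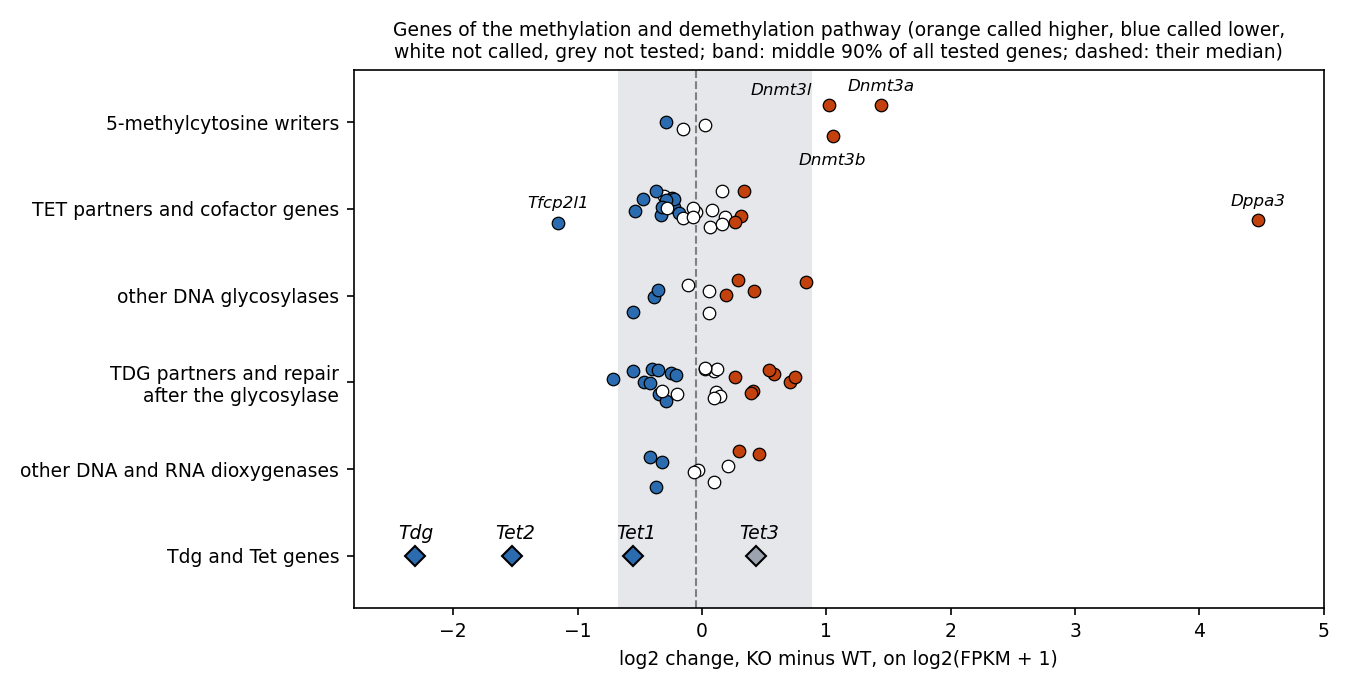
Log2 change, TDG KO minus WT, on log2(FPKM + 1), of the tested genes of 5 groups and of Tdg and the Tet genes as diamonds; orange points were called higher, blue lower and white neither, grey was not tested, and the band holds the middle 90% of all tested genes around their median of -0.04. Tdg at -2.31 and Tet2 at -1.53 lie left of the band, and Dppa3 at 4.47 lies farthest right.

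The genes whose 4 libraries lay closest to those of each enzyme gene were named by Euclidean distance between mean-centred log2(FPKM + 1) values, among genes within a factor of 2 of its mean level. For Tdg these were Piga (distance 0.204), Atp2a3 (0.263) and Phka2 (0.288), of 4032 candidates. Piga held 43.9 and 45.6 FPKM in WT and 10.3 and 9.01 FPKM in TDG KO. For Tet1 they were Snurf (0.0820), Prrc2b (0.189) and Ranbp2 (0.196), of 3205 candidates. Snurf showed the same step between the TDG KO libraries as Tet1, with 41.0 and 36.7 FPKM in WT, 31.8 in TDG KO replicate 1 and 21.2 in replicate 2. For Tet2 they were Ly75 (0.188), Map7d2 (0.258) and Porcn (0.270), of 4016 candidates, and for Tet3 Ugt8a (0.0839), Gm38999 (0.0969) and Cox8c (0.100), of 914. Ugt8a averaged 1.04 ± 0.149 FPKM in WT and 1.73 ± 0.236 FPKM in TDG KO (SD, n = 2 each). With 4 libraries in 2 groups, such closeness mostly reflects a like difference between genotypes.

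Neighbouring genes on the chromosome did not share 1 pattern. Around Tet1, 7 of the 10 nearest tested genes (5 on each side) were called lower and none higher, against 29.5% lower over all genes. Its nearest neighbours were Ccar1, a coactivator gene (log2 change -0.54), Ddx50, an RNA helicase gene (-0.51), Slc25a16, a mitochondrial carrier gene (-0.61), and the nuclease and helicase gene Dna2 (-0.92). All of these were called lower, with limma adjusted p of 0.000977 or less. Their falls were close to or beyond the -0.56 of Tet1.

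Around Tet2, 4 of 10 neighbours were called lower and 1 higher. For these counts, the shares over all tested genes were 29.5% lower and 24.4% higher. Ppa2, a mitochondrial pyrophosphatase gene, fell by 0.24 (limma adjusted p = 0.0238), and Ints12, of the Integrator complex, held 15.7 and 16.7 FPKM in WT and 15.7 and 16.6 FPKM in TDG KO. Cenpe, a kinetochore motor gene, had a log2 difference of -0.20 (limma adjusted p = 0.0576). Bdh2, a dehydrogenase gene, fell by 1.77 (limma adjusted p = 1.48e-05) and lies 1736 kb from the Tet2 locus. Around Tet3 2 of 10 were called higher and 2 lower, and its nearest neighbours Bola3 (log2 difference 0.06), Mob1a (0.07), Dguok (0.05) and Actg2 (-0.44) were not called. Around Tdg 6 of 10 were called lower and none higher. These 6 include Glt8d2, which overlaps Tdg and shares its locus in the authors' table.

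Windows of 10 Mb centred on each gene had small median log2 changes, but their calls leaned in different directions. Medians were 0.07 over the 138 tested genes around Tdg and -0.11 over 53 around Tet1. They were -0.08 over 41 around Tet2 and -0.17 over 72 around Tet3, against -0.04 over all tested genes. Called higher and lower were 47 and 29 genes around Tdg, and 7 and 20 around Tet1. Around Tet2 these were 10 and 15, and around Tet3 11 and 28. Over all tested genes 24.4% were called higher and 29.5% lower. The mean share of a CTCF peak list in these windows differed by -0.10, -0.10, -0.08 and -0.03 on the log2 scale between TDG KO and WT, in the same order of genes.

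**Figure D4:**
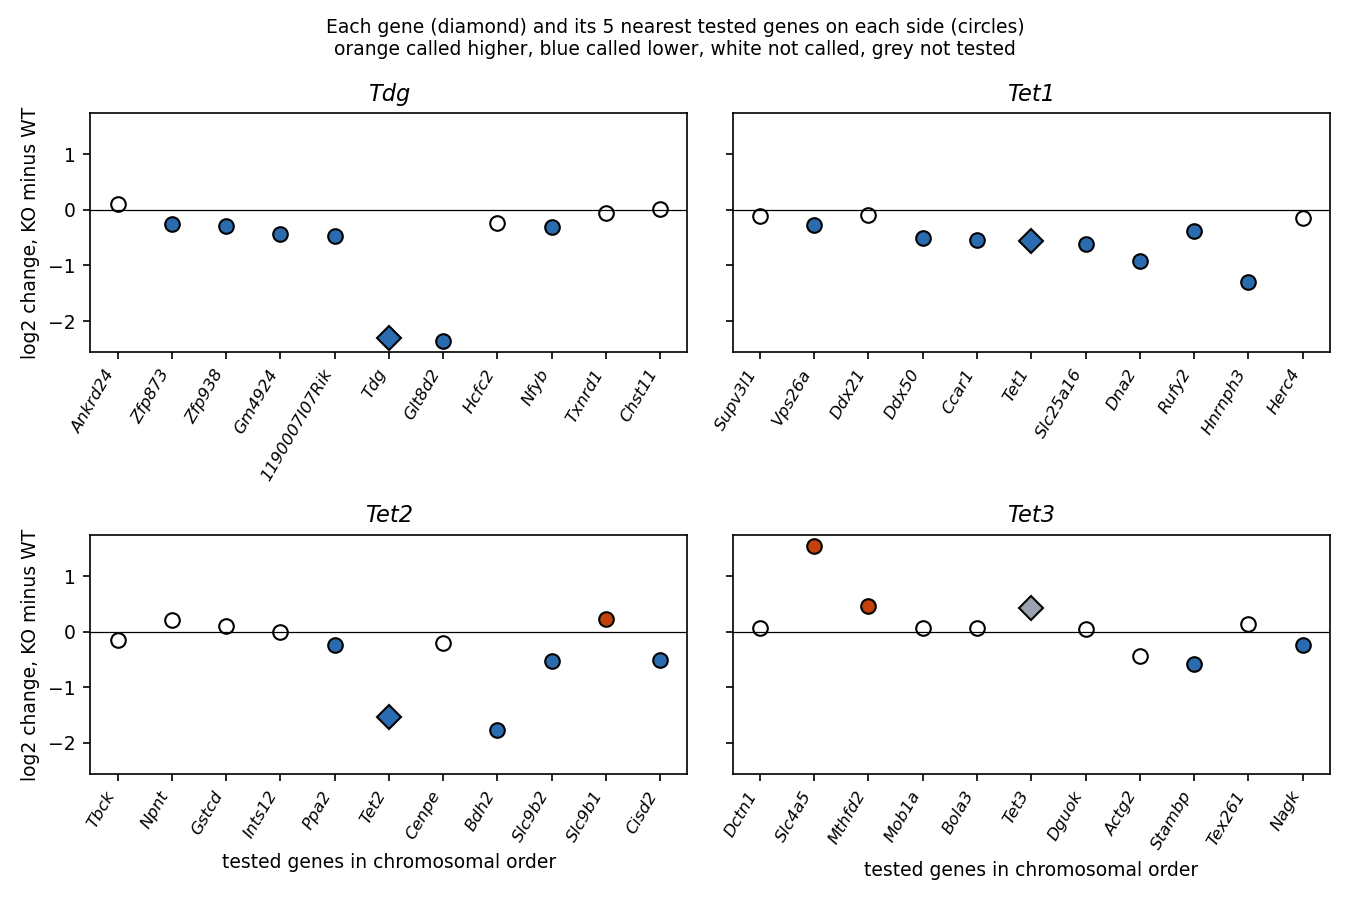
Log2 change, TDG KO minus WT, of the 5 nearest tested genes on each side of Tdg, Tet1, Tet2 and Tet3, in chromosomal order, with the enzyme gene itself as a diamond; blue was called lower, orange higher and white neither, and grey was not tested. All neighbours of Tet1 lie below 0, and Glt8d2 at -2.36 beside Tdg is the lowest shown.

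Around the 4 loci, CTCF regions found in every list were the most common class, and few separated the genotypes. The authors deposited 1 peak list per library, with 38303 and 37099 peaks in WT and 48514 and 48833 in TDG KO, and read depth of these libraries is unknown. Peaks that overlapped by at least 1 base were merged into 54729 regions, of which 32740 were in all 4 lists. A region that only the 2 TDG KO lists held, and both of them, is called KO-only here, and 5885 regions (10.8%) were, against 93 with the reverse pattern. Within 20 kb of the enzyme genes lay 7 regions in all 4 lists, 2 KO-only regions, none of the reverse class and 5 in other combinations. The TDG KO lists were longer, and the part of list length in the KO-only regions was not tested. With every list held to its strongest 37099 peaks, each of these 2 was in TDG KO replicate 1 only. Their ranks in the full list of TDG KO replicate 2 were 40334 (Tet1) and 41325 (Tet3), beyond that cut. Heights are given as the percentile of the authors' score within a region's own list, where 100 is highest, and ranks from lists of different length show no change.

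At Tet1, 7 regions lay within 20 kb, the most of the 4 loci. As many or more lay near 18.2% of tested genes, and near 25.7% of those with loci of 60 to 130 kb. A region inside the gene, 5.93 kb downstream of the start (chr10:62881246-62881543), was in all lists, at percentiles 81.4 and 73.7 in the WT lists and 76.8 and 70.04 in the TDG KO lists. Another inside the gene, 24.6 kb downstream (chr10:62862483-62862870), was at percentiles 44.2 and 47.0 (WT) and 76.8 and 61.6 (TDG KO), the pair of TDG KO lists giving the higher rank. The last region in all lists (chr10:62804118-62804423) lay just past the 3′ end, at percentiles 28.8 to 42.6. The KO-only region (chr10:62793695-62793942) lay beyond it, 93.5 kb from the start, at percentiles 23.6 and 17.4. The remaining 3 were at chr10:62794267-62794585, in all lists but WT replicate 1; at chr10:62874942-62875180, in all but TDG KO replicate 2; and at chr10:62896773-62896963, in replicate 2 of each genotype. Percentiles of these ran from 2.999 to 45.3.

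Near Tet2, a region 7.82 kb upstream of the start (chr3:133552036-133552375) was in all lists, at percentiles 67.9 and 90.2 (WT) and 73.2 and 61.7 (TDG KO). A weak peak inside the gene (chr3:133536624-133536816) was in TDG KO replicate 2 only, at percentile 12.9. No region within 20 kb of Tet2 was KO-only or of the reverse class. Presence in a peak list does not measure how much CTCF was bound, and a link to the Tet2 difference in RNA was not tested.

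Tet3 had 3 regions within 20 kb. Those in all lists lay in the neighbour Bola3, at chr6:83349242-83349602 and chr6:83356465-83357009, with percentiles of 73.3 to 95.4. The KO-only region (chr6:83478216-83478505) lay 36.7 kb upstream of the start used here, at percentiles 24.6 and 15.3. It is within 20 kb of the authors' locus and not of the RefSeq gene, which also begins further upstream than the start used here. Near Tdg, a region in Glt8d2 (chr10:82666437-82666813) was in all lists, at percentiles 70.6 and 32.8 (WT) and 67.7 and 55.7 (TDG KO). A neighbouring peak (chr10:82666092-82666249) was in TDG KO replicate 1 only, at percentile 13.6.

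No CTCF peak overlapped the RefSeq start used here for any of the 4 genes, and other starts were not examined. The authors' loci of Tet1 and Tet2 reach further upstream, to 62899118 and 133585053. They hold the regions chr10:62896773-62896963 and chr3:133552036-133552375, upstream of the starts used. The nearest peak of any list was 5.78 kb from the start of Tet1, 7.57 kb from that of Tet2, 36.3 kb from that of Tdg and 36.5 kb from that of Tet3. A KO-only region lay within 20 kb of 2 of the 4 loci, Tet1 and Tet3. The same held for 30.1% of tested genes, and for 34.2% of the 2075 whose loci are of like length (60 to 130 kb), so that 2 of 4 cannot be set apart from that share. Tet1, with a KO-only region, had lower RNA in TDG KO, and Tet3, with the other, had higher values.

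**Figure D5:**
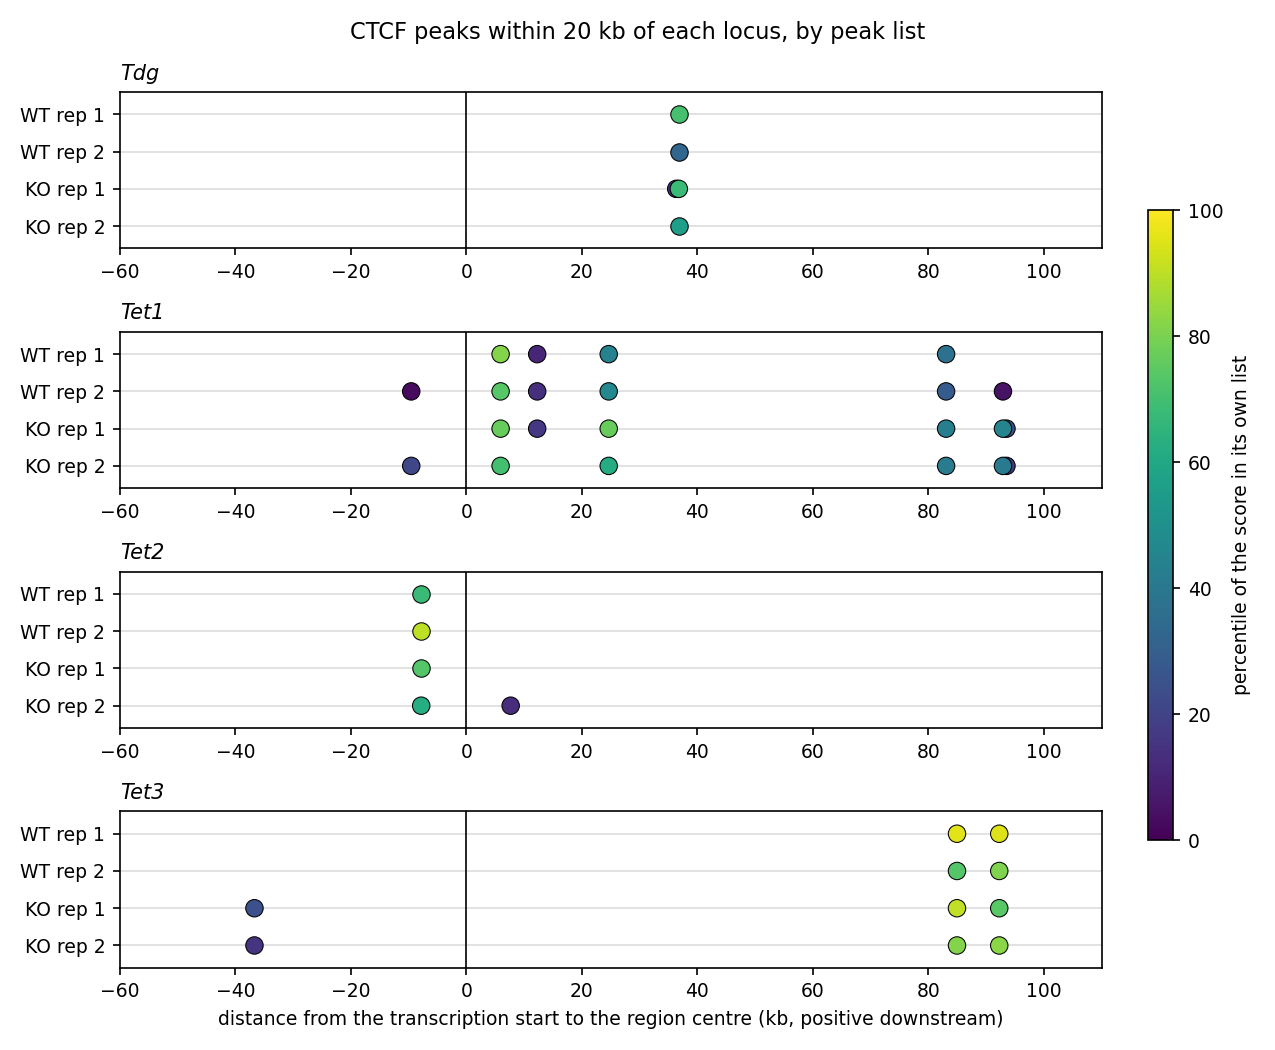
CTCF peaks within 20 kb of the loci of Tdg, Tet1, Tet2 and Tet3, by distance in kb from the transcription start (vertical line, positive downstream) and by peak list; colour gives the percentile of the authors' score in its own list. Tet1 has 7 regions and the nearest to its start, at 5.93 kb, is in all 4 lists, while the KO-only regions of Tet1 (93.5 kb downstream) and Tet3 (36.7 kb upstream) are weak in both TDG KO lists.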

How the data were processed

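RNA of 2 WT and 2 TDG KO libraries and CTCF peaks of 2 and 2 libraries were used, 8 of the 20 samples in the series. The authors deposited FPKM per gene and library, per the file headers. The comparison table the authors deposited gives log2 folds, with p-values and q-values, besides genotype means and a test statistic. The authors deposited a score per CTCF peak, whose meaning was not given in the sources used here. Per the submitters' processing notes, Bowtie2 2.2.9, MACS2 2.2.1, deepTools, Cuffdiff, Cufflinks 2.2.1 and TopHat2 2.1.1 were used with mm10, with no roles named. The labels name polyadenylated RNA.

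Absolute depth is unknown. From the steps between low FPKM values, depth as a share of that of WT replicate 1 was 0.858 (WT replicate 2), 0.991 and 0.929 (TDG KO replicates 1 and 2). Between 20537 and 21776 genes were above 0.

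Expression was tested with limma 3.58.1 (R 4.3.3, trend option) on log2(FPKM + 1), 2-sided, at an adjusted p of 0.05 (Benjamini-Hochberg). It covered 12035 genes, those averaging 1 FPKM or more. The procedure was tested on simulated data. The members, gene lists and tests were chosen with earlier results of these data known. Named were the 4 members, up to 4 called genes per list with the largest log2 change, the 2 nearest tested genes per side, the 3 closest patterns and every CTCF region within 20 kb. Uhrf1, Uhrf2, Cxxc4, Slc23a1, Pou5f1 and the example FPKM values of Piga, Snurf and Ugt8a were named after their values were seen. Gene positions, starts and promoters come from RefSeq (GRCm38.p6), and 94.2% of tested genes had a position there. A search of the promoters for a CTCF consensus motif is not reported here. Alternatives were other pseudocounts, filters and scalings, no trend, a replicate block, leaving out each library, and other CTCF windows, overlaps and thresholds. The correlation between deviations of WT and TDG KO replicates 1 was -0.0157, so replicate numbers were not taken as pairs. RNA polymerase II, IgG and input libraries were not analysed here.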

Additional observations from a re-analysis of the deposited data

How the results depend on the processing

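Tdg and Tet2 kept their call in all 11 alternatives, with log2 changes of -2.49 to -2.22 and of -1.72 to -1.33 and limma adjusted p of up to 0.00263 and 0.00799. Tet1 kept its call in 8 of 11, where it lay between -0.84 and -0.27 when each library was left out. Its call was lost at -0.56 with no filter (limma adjusted p = 0.126), and at -0.54 and -0.57 without WT replicate 1 or 2 (0.0871 and 0.0746). The cause was not tested. When an alternative leaves 1 library in a genotype, that library is taken to vary like the other genotype's. Tet3 lay at 0.29 to 0.57 with each library left out and at 0.89 with a pseudocount of 0.1, also with no filter (limma adjusted p = 0.0698). It was called in none of its fits, whose limma adjusted p ran from 0.0698 to 0.329. A minimum of 5 FPKM or no trend gave no value for Tet3.

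With the replicate number as a block the limma adjusted p was 8.60e-08 for Tdg (-2.31), 0.0018 for Tet1 (-0.56) and 7.05e-07 for Tet2 (-1.53), and Tet3 stayed at 0.43 with no test. The block gave 3030 higher and 3666 lower calls over all genes, against 2942 and 3554. The numbers share no stated source.

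Leaving out each library gave 2257 to 2533 higher and 2459 to 2780 lower calls over all genes. For TET partners and cofactors it gave 1 to 5 higher (1 without WT replicate 1) and 7 to 11 lower (7 without either WT replicate). For other glycosylases it gave 2 to 3 higher (2 without WT replicate 2 or TDG KO replicate 2) and 1 to 3 lower (1 without TDG KO replicate 2). Lower calls there were 1 with no filter and 0 at a minimum of 5 FPKM. For TDG partners and repair it gave 4 to 6 higher (4 without TDG KO replicate 2) and 5 to 10 lower (5 without WT replicate 2). For the other dioxygenases it gave 1 to 3 higher (1 without WT replicate 1 or TDG KO replicate 2) and 2 to 3 lower.

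CTCF counts moved with the window and threshold. Within 10 kb, KO-only regions were 0 at Tet1 and 0 at Tet3, and Tet3 had 1 region, 1 of it in every list. Within 50 kb Tet3 had 6 regions, 5 of them in every list, and Tdg 2 in every list. With the strongest peaks at equal list length, Tdg and Tet2 had 1 region each and KO-only regions were 0 at Tet1 and 0 at Tet3. With the stronger 50% of each list, Tdg had 1 region (0 in every list), Tet1 2 (1 in every list and 1 KO-only), Tet2 1, and Tet3 0 KO-only. That KO-only region of Tet1 was chr10:62862483-62862870, which every full list held. RefSeq gene bounds, chosen after seeing the data, gave 0 KO-only regions at Tet3. Leaving out a list gave Tdg 1 to 2 regions and 0 to 1 KO-only, Tet2 1 to 2 and 0 to 1, and Tet1 3 to 4 in every list and 1 to 2 KO-only. FPKM and peak lists hold no read counts, which limits the precision of Tet3 and of the weak peaks.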
